A study of Mus musculus with 6 samples.

Results

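B cells and the plasma cells that arise from them were followed here through 9 genes in visceral fat of obese mice. The 9 genes were taken as a set of B cell and plasma cell markers, chosen with earlier results of these data known. Each was read from the array row that names it and no other gene, or from the brightest such row where there were several. All 9 had a row, out of 22180 genes with a row of their own. Of these, 5 mark B cells in general (Ms4a1, Cd79a, Cd79b, Cd22 and Fcrla), 3 mark antibody-secreting plasma cells (Ighg3, Jchain and Tnfrsf17), and Ighm is made by both.

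B cells carry an antibody on their surface as a receptor, with the signalling pair CD79A and CD79B beside it. After stimulation some become plasma cells, which display less or none of the receptor, carry the survival receptor BCMA (encoded by Tnfrsf17) and secrete antibody. The joining chain encoded by Jchain links IgM and IgA into polymers. In obese visceral fat B cells are known to gather in lymphoid clusters and around dying adipocytes, and to release antibodies there.

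The tissue was epididymal white adipose tissue (eWAT), the fat pad beside the epididymis, of male C57BL/6 mice aged 8 months. Wild-type (WT) mice and transgenic (Tg) mice that carry Blnc1 (a noncoding transcript best known for its role in brown adipocytes) specifically in adipose tissue had both eaten the high-fat diet D12492 for 21 weeks. Each group had 3 arrays, numbered 1 to 3 and labelled as biological replicates, and each array was taken as 1 mouse. The promoter that drives the transgene and the number of founder lines are not given in the sources used here.

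Values are log2 signals, on which a difference of 1 is a 2-fold change. Adipoq, the defining adipocyte marker, read 9.80, 9.62 and 9.21 in WT and 10.40, 9.99 and 10.10 in Tg. Every Tg array thus lay above every WT array in this marker, with a difference of 0.62 (adjusted p of 0.382 in limma). Epididymis genes stood out in Tg 2, where Gpx5 read 10.77 and Lcn9 read 9.87, and Gpx5 also read 3.22 in Tg 1 against 1.20 or less in the other 4 arrays. Spink8, likewise a gene of the reproductive tract, read 6.55 in WT 2 and 8.09 in WT 3 against 2.53 or less elsewhere. Of the 13 measured epididymis markers, the log2 of the summed signal lay between 4.90 and 8.23 in WT and at 5.48, 12.01 and 4.92 in Tg 1, Tg 2 and Tg 3. In whole tissue, fewer B cells and less RNA per B cell cannot be told apart.

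The promoter windows of a pair of members are shown because Cd22 was the only member whose groups did not overlap, and Jchain belongs to the plasma cell side. They come from RefSeq on build GRCm38.p6, which the deposited table does not name, and run from 250 bases before the gene's start to 50 after it. Cd22 lies at chr7:30878979-30879278 and Jchain at chr5:88527848-88528147, both on the minus strand. Capitals mark the letters TCCC, any 2 bases and GGGA, the palindromic core recognised by EBF factors, B cell and adipocyte regulators of which EBF2 is a known partner of Blnc1.
Cd22: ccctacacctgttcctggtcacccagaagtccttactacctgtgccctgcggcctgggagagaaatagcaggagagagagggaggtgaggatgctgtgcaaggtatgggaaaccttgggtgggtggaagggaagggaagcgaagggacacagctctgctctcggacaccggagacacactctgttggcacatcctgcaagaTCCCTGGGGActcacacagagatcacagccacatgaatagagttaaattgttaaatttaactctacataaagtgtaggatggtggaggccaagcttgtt
Jchain: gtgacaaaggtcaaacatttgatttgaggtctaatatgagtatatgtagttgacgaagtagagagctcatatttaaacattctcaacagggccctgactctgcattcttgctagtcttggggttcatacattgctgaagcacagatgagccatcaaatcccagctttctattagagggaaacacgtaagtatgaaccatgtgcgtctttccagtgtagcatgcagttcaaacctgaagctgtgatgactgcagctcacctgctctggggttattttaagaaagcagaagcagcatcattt
The match in Cd22 starts 49 bases before the gene's start, and 0.904% of 32851 promoter windows of the same length hold one. Of the 5 members with a window in the table (Cd22, Cd79a, Fcrla, Jchain and Tnfrsf17), only Cd22 held these letters, and 0 held ATGCAAAT on either strand, the octamer bound by Oct factors, which 1.74% of windows hold. The EBF core reads alike on both strands, and a match is a description and not a binding site.

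All 9 members had a lower mean in Tg than in WT, with differences from -1.05 for Ighg3 to -0.30 for Cd79b and a median of -0.63. The members were chosen with earlier results of these data known, so this count is a description and not a test. Over all 41345 rows the median difference was -0.01 and 52.8% were lower in Tg (39.8% when each array was centred on its median, which left all 9 members lower). None of the members passed the test. Limma called 0 of 41345 rows (0.0%) at an adjusted p of 0.05, and the members' adjusted p lay between 0.364 and 0.82. At an unadjusted p under 0.05 there was 1 member, Cd22, where 10.3% of all rows met that limit.

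Cd22, an inhibitory receptor that dampens B cell receptor signalling, read 6.55, 6.66 and 6.85 in WT 1 to WT 3. In Tg 1 to Tg 3 it read 6.32, 6.16 and 6.32. The highest Tg array thus lay below the lowest WT array, and the difference was -0.42 ± 0.12 (SE of the fit, n = 3 per group, 1.34-fold lower), with an adjusted p of 0.364 in limma and an exact permutation p of 0.1, the smallest that 3 against 3 arrays allow. Cd22 was the only 1 of the 9 members with groups apart, and 9.35% of all rows were apart in this direction (5.49% after median centring) and 16.7% in either direction.

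Ms4a1 encodes CD20, a membrane protein of mature B cells that plasma cells lose. It read 4.19, 4.79 and 4.77 in WT and 4.80, 2.87 and 3.79 in Tg, each in the order of replicates 1 to 3. Tg 1 was level with the highest WT arrays while Tg 2 and Tg 3 lay below all of them. The difference was -0.76 ± 0.47, with an adjusted p of 0.618 in limma. It was -0.29 without Tg 2 and -1.25 without Tg 1.

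The receptor pair had the same order of groups. Cd79a read 5.10, 5.82 and 5.93 in WT and 5.96, 3.86 and 4.95 in Tg, so Tg 1 was the highest of the 6 arrays and Tg 2 the lowest. Cd79b read 4.77, 5.11 and 4.85 in WT and 5.53, 4.16 and 4.14 in Tg, again with Tg 1 above every WT array. Their differences of -0.69 ± 0.52 and -0.30 ± 0.38 had adjusted p of 0.683 and 0.82 in limma, and both depended on single arrays. Without Tg 1 they were -1.21 and -0.76, and without Tg 2 they were -0.16 and -0.07. Without Tg 3 the Cd79b difference was -0.06.

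Fcrla, an intracellular Fc receptor-like protein of B cells, read 3.94, 4.12 and 4.37 in WT and 3.95, 3.73 and 3.22 in Tg. Only Tg 1 reached into the WT range, at its lower end. The difference was -0.51 ± 0.21, with an adjusted p of 0.486 in limma, and -0.30 without Tg 3.

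Ighm, the constant region of the IgM heavy chain, read 11.17, 11.94 and 11.89 in WT and 11.49, 10.81 and 10.82 in Tg. Tg 2 and Tg 3 were the lowest, and WT 1 lay below Tg 1. The difference was -0.63 ± 0.28, or 1.54-fold lower, with an adjusted p of 0.507 in limma.

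Among the plasma cell members, Jchain read 7.52, 8.96 and 9.21 in WT and 8.33, 7.60 and 6.97 in Tg. WT 1 lay among the Tg arrays, below Tg 2. Its difference was -0.93 ± 0.52 (1.91-fold lower, adjusted p of 0.583 in limma). It was -1.45 without WT 1, -0.61 without WT 3 and -0.60 without Tg 3.

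Tnfrsf17, the BCMA gene, was dim, with a mean below that of 54.8% of all rows, and low values are compressed by the normalization. It read 2.08, 2.81 and 2.77 in WT and 2.37, 1.97 and 1.74 in Tg. The order of the arrays was close to that of Ighm, with WT 1 between Tg 2 and Tg 1, and the difference was -0.52 ± 0.25 with an adjusted p of 0.53 in limma.

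Ighg3, the constant region of the IgG3 heavy chain, was the exception in WT 1. It read 8.20, 6.49 and 6.73 in WT and 7.39, 5.66 and 5.21 in Tg, so WT 1, the lowest WT array in the other 8 members, was the highest of all 6 arrays here. Tg 2 and Tg 3 were again the lowest. Its difference of -1.05 ± 0.67 spanned the widest range between arrays of all members, 2.98, and had an adjusted p of 0.628 in limma. Without WT 1 the difference was -0.52, without Tg 3 it was -0.62 and without Tg 1 it was -1.70.

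**Figure D1:**
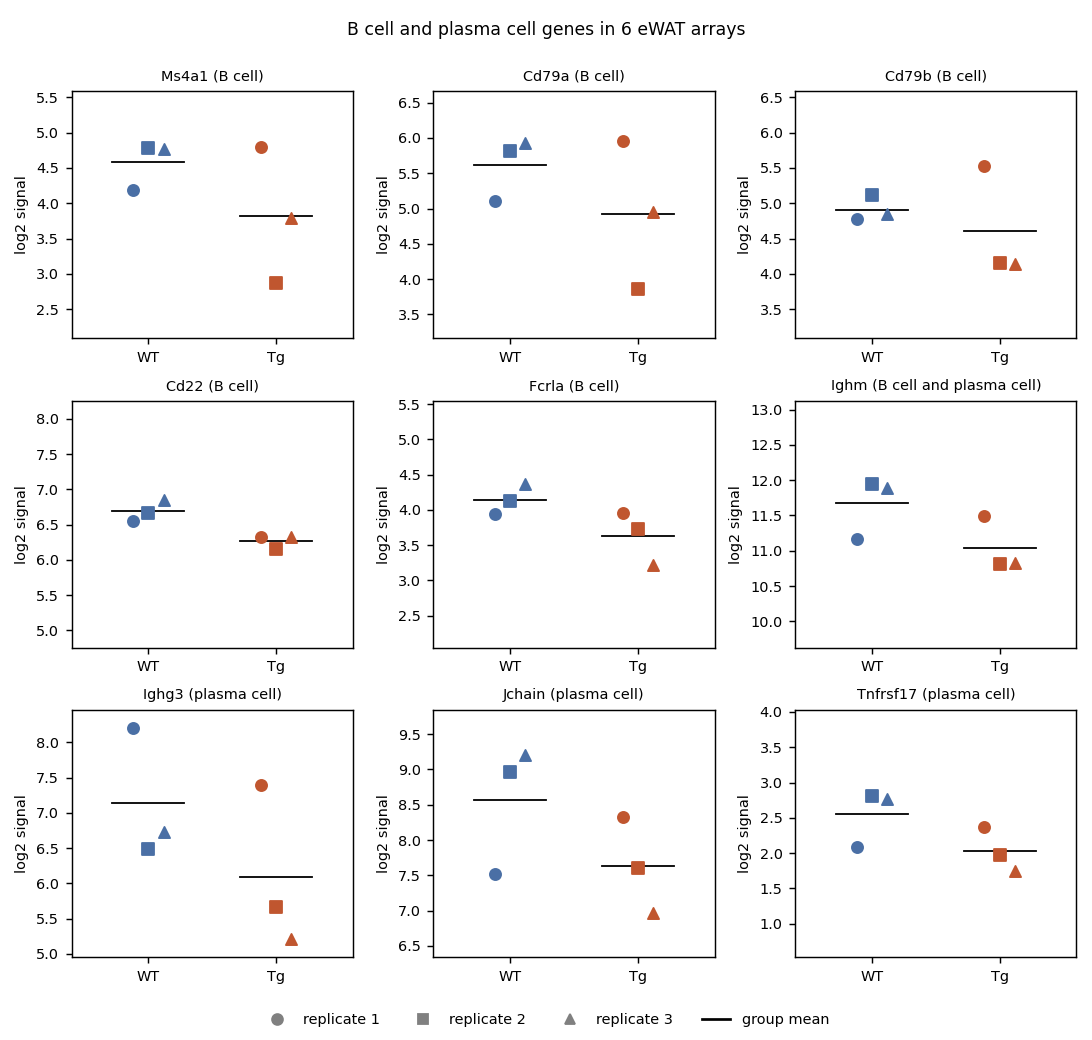
Log2 signal (y axis, each panel spanning the same number of log2 units) of the 9 members in 3 WT and 3 Tg arrays, with symbols for the replicate number and a line at the group mean. Cd22 is the only panel whose groups do not overlap, and in Ms4a1, Cd79a and Cd79b the array Tg 1 lies above every WT array.

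The Tg arrays were thus not alike. Tg 1 was the highest Tg array in 9 of 9 members, where 36.4% of all rows have that order, although in Cd22 it equalled Tg 3 to 2 decimals. Tg 2 and Tg 3 lay below all 3 WT arrays in 8 of 9 members, all but Jchain, against 15.3% of all rows. These orders were looked for after the values were seen, and the members are not independent of each other.

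B cell and plasma cell members were then compared through the mean of each group, with each gene centred on its mean over the 6 arrays. The 5 B cell members averaged -0.01, 0.38 and 0.44 in WT and 0.39, -0.76 and -0.44 in Tg, a difference of -0.54 beside an SD between arrays of 0.45. Without Tg 2 it was -0.29, and without Tg 1 it was -0.87. The 3 plasma cell members averaged 0.27, 0.42 and 0.57 in WT and 0.36, -0.59 and -1.02 in Tg, a difference of -0.84 beside an SD of 0.51. Without Tg 3 that was -0.53. In both groups of genes the WT and Tg arrays overlapped, through Tg 1 alone.

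The B cell difference was closer to 0 than the plasma cell difference by 0.30, which is about the SD of this quantity between arrays (0.29). B cell minus plasma cell mean was -0.27, -0.04 and -0.13 in WT and 0.03, -0.17 and 0.59 in Tg. Tg 3 stood apart, since there the plasma cell members were lower than the B cell members, and without Tg 3 the gap was 0.08, while without Tg 2 it was 0.46. In Tg 2 the order was the other way, with the B cell members the lower ones. Ighm, counted with either group, gave a gap of 0.28 or 0.25, so the gap stayed within about 1 SD of the arrays.

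Markers of other cells varied beside the members. T cell markers, 11 measured of 15, averaged -0.66, 0.70 and 1.06 in WT and -0.05, -0.44 and -0.61 in Tg. Of these markers 11 of 11 were lower in Tg (52.8% of all rows) and 0 had groups apart (9.35% of all rows apart and lower). Their summed signal had a log2 of 10.38 to 10.97 in WT and 9.94 to 10.39 in Tg. Il7r alone made up most of that sum in each array, at 10.17, 10.38 and 10.22 in WT and 9.38, 10.10 and 10.18 in Tg. The sum therefore says little about the other T cell markers. WT 1 was the lowest WT array in 11 of 11 T cell markers, as it was in 8 of 9 members, against 33.9% of all rows. The T cell median difference was -0.85, with -0.39 without WT 3 and -1.50 without WT 1. Epididymis markers averaged 3.87 in Tg 2 and between -1.09 and -0.45 in the other arrays, and Tg 2 was the lowest array in Ms4a1, Cd79a, Cd22 and Ighm. Tg 3, at -1.09 in those markers, was the lowest array in the other 5 members. Their part in the member values was not tested. In WT 1, Tg 1 and Tg 3 alone, the arrays low in both Gpx5 and Spink8 apart from Gpx5 in Tg 1, 5 of 9 members were lower in Tg. Of these, Ighm and Tnfrsf17 were close to level, at -0.01 and -0.02. The B cell mean differed by -0.01 and the plasma cell mean by -0.60, with 1 WT array to compare against. That plasma cell mean rested on Ighg3 at -1.90, in which WT 1 was the highest array, while Jchain differed by 0.13.

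**Figure D2:**
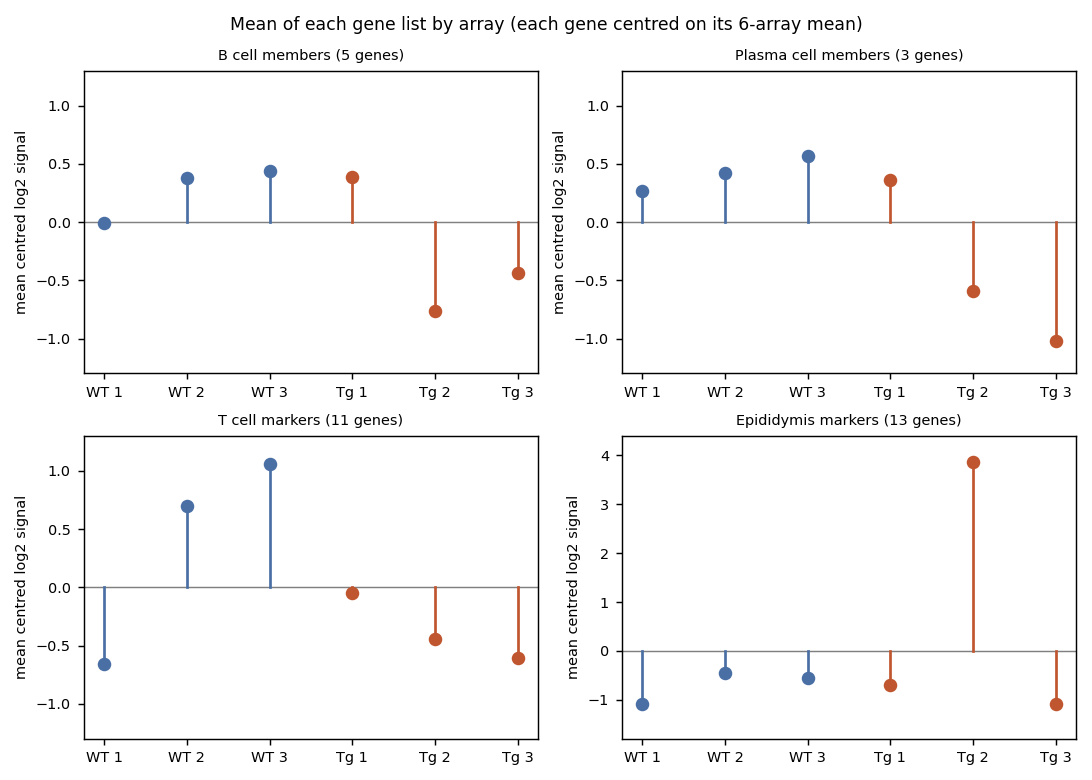
Mean centred log2 signal by array (y axis; WT blue, Tg orange) of the B cell members, the plasma cell members, T cell markers and epididymis markers, the last on a wider axis. Tg 1 lies with the WT arrays for B cell and plasma cell members (0.39 and 0.36), WT 1 is the lowest array for T cell markers (-0.66), and Tg 2 alone is high in epididymis markers (3.87).

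Antibody genes were represented by further rows. The annotation named an antibody heavy or light chain segment in 36 rows, 5 of them with several names, and 35 of the 36 were lower in Tg, by a median of -0.88. Groups were apart in 6 rows, all lower in Tg, where 9.35% of all rows are apart and lower and 52.8% are lower. None passed the test, with a smallest adjusted p of 0.326 in limma, and 13 had an unadjusted p under 0.05, where 5.88% of all rows were lower at that limit. That count was 5 without WT 2 and also without WT 3, 7 without Tg 2, 6 without Tg 3 and 22 without Tg 1. Antibody segments resemble each other in sequence, so rows may pick up each other's transcripts and are not independent counts.

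Ighv1-53, a heavy chain variable segment, had the widest difference, with 8.92, 9.94 and 9.69 in WT and 8.42, 6.43 and 6.86 in Tg (-2.28 ± 0.54). All 3 Tg arrays lay below all WT arrays. The kappa light chain segment Igkv4-59 read 6.78, 8.30 and 7.77 in WT and 6.48, 6.31 and 5.51 in Tg, a difference of -1.52 ± 0.43 with groups apart. Another kappa segment row was apart as well (-1.11 ± 0.41), and Igkv8-19, at 0.03, was the row that was not lower in Tg. The adjusted p of Ighv1-53 in limma was 0.335.

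The rows that name Ighm or Ighg3 differed among themselves. The annotation named Ighm alone in 7 rows, some of which may detect heavy chain variable segments, which the annotation cannot settle. All 7 were lower in Tg, with differences from -1.78 to -0.61, and only 1 of them, at -1.78 ± 0.48, had groups apart. The 2 brightest gave -0.63 and -0.64. A dim second row of Ighg3 read 2.17, 2.77 and 2.58 in WT and 1.65, 0.85 and 0.92 in Tg (-1.37 ± 0.26, groups apart), and in that row WT 1 was the lowest WT array and not the highest. The high WT 1 value of Ighg3 was therefore seen in its brighter row only.

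Tg 3 was the lowest array in 27 of the 36 rows and Tg 2 in 8. The highest was WT 2 in 16 and WT 3 in 14. Tg 1 was the highest Tg array in 32 rows (36.4% of all rows) and lay above all WT arrays in 2. It did so in 3 of the 9 members, Ms4a1, Cd79a and Cd79b, and in 27.8% of all rows, so the members' share is near the background.

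**Figure D3:**
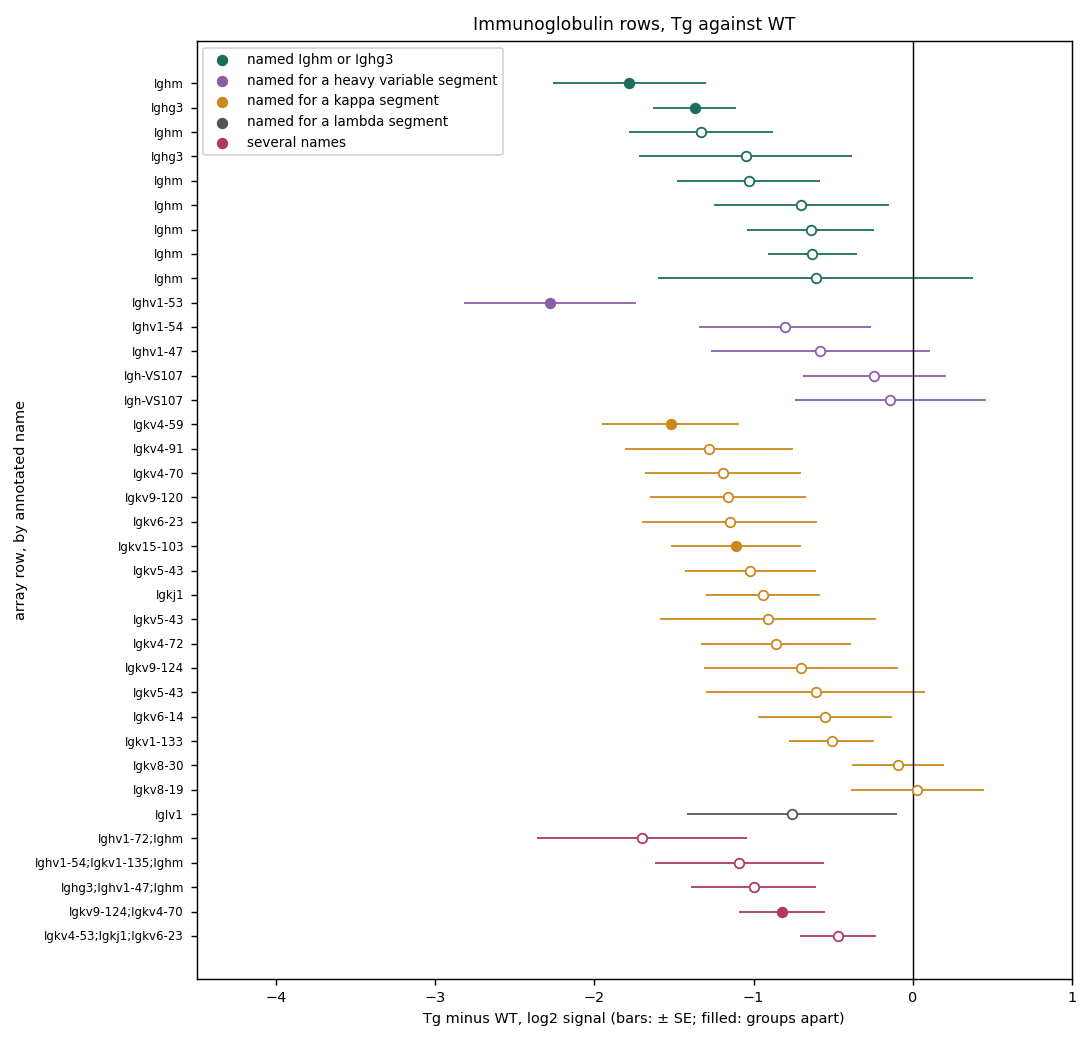
Difference between Tg and WT (x axis, log2 signal, bars ± SE of the fit, n = 3 per group) for the 36 array rows that name antibody segments, grouped by the kind of name. Filled points mark the 6 rows whose groups do not overlap, and 35 of 36 points lie left of 0.

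The wider B cell genes leaned the same way by smaller amounts. Of 16 listed B cell surface genes 13 were measured, and 13 of 13 were lower in Tg by a median of -0.27 (9 of 13 and -0.17 without Tg 2). Cd37, a tetraspanin of leukocytes, was the only gene of the 13 with groups apart, at 9.42, 9.29 and 9.29 in WT and 8.91, 9.08 and 9.06 in Tg (-0.31 ± 0.10, adjusted p of 0.404 in limma). Among all rows 52.8% were lower in Tg and 9.35% were apart and lower (39.8% and 5.49% after median centring). Ltb, the lymphotoxin beta gene that helps build lymphoid tissue, read 4.21, 5.21 and 5.77 in WT and 4.82, 4.05 and 3.56 in Tg. The follicular B cell receptors Cr2 and Fcer2a read highest in Tg 1 (2.43 and 3.51), as the receptor pair did, and differed by -0.27 ± 0.39 and -0.05 ± 0.26 between the groups. Cr2 was dim, with a mean below that of 65.5% of all rows.

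B cell receptor signalling genes were lower in 14 of 15 measured, by a median of -0.32 (-0.20 without WT 3), with groups apart in 7. Over all rows 52.8% were lower and 9.35% were apart and lower (39.8% and 5.49% after median centring). Vav1, an exchange factor of the receptor pathway, read 6.90, 7.13 and 7.22 in WT and 6.51, 6.59 and 6.65 in Tg (-0.50 ± 0.12, adjusted p of 0.332 in limma). Btk, the kinase named for Bruton, differed by -0.47 ± 0.14, the phosphatase genes Ptpn6 by -0.49 ± 0.19 and Inpp5d by -0.36 ± 0.11. Pik3cd (-0.41), Pik3ap1 (-0.32) and the kinase gene Syk (-0.26) were apart too. In Vav1, Btk, Inpp5d, Pik3ap1 and Syk the lowest array was Tg 1, the array in which Ms4a1, Cd79a and Cd79b were highest. Many of these genes are also used by macrophages, and macrophage markers were lower in 10 of 10, apart in 9, with a log2 summed signal of 13.62 to 13.72 in WT and 13.43 to 13.46 in Tg. Blk, a kinase largely particular to B cells, read 3.51, 3.74 and 4.32 in WT and 3.84, 2.79 and 3.64 in Tg (-0.43 ± 0.33), with Tg 1 inside the WT range. The part of macrophages in the signalling genes was not tested.

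B cell transcription factor genes were lower in 10 of 12, by a median of -0.35 (-0.22 without Tg 2). Among all rows 52.8% were lower in Tg (39.8% after median centring). Groups were apart and lower in 9.35% of all rows (5.49% after median centring) and apart in either direction in 16.7%. Pax5, which fixes B cell identity, read 1.91, 3.09 and 2.77 in WT and 2.77, 1.89 and 2.04 in Tg (-0.35 ± 0.36). It was dim, with a mean below that of 53.1% of all rows. Pou2af1, a coactivator of antibody genes, read 3.98, 4.99 and 5.61 in WT and 4.87, 3.67 and 3.74 in Tg (-0.76 ± 0.49). In both, Tg 1 lay inside the WT range. Bach2 (-0.30 ± 0.12) and Ikzf1 (-0.35 ± 0.12) had groups apart and lower in Tg. Ebf1, which serves B cells and adipocytes alike, went the other way, at 8.49, 8.53 and 8.34 in WT and 8.78, 8.75 and 8.87 in Tg (0.35 ± 0.10, adjusted p of 0.374 in limma), and adipocyte markers were higher in 7 of 7. The part of adipocytes in the Ebf1 value was not tested.

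Plasma cell genes beyond the members were lower in 12 of 14, by a median of -0.15 (-0.08 without WT 3), beside -0.93 for the 3 members. Slamf7, a surface receptor of plasma cells and other leukocytes, was the only gene of the 14 with groups apart, at 9.19, 9.64 and 9.88 in WT and between 8.81 and 9.01 in Tg (-0.63 ± 0.19, adjusted p of 0.379 in limma). Among all rows 52.8% were lower in Tg and 9.35% were apart and lower (39.8% and 5.49% after median centring). Prdm1, the gene of the plasma cell regulator BLIMP-1, differed by -0.65 ± 0.25, with WT 1 at 4.68 below Tg 2 at 4.79. Mzb1, a chaperone of antibody secretion, read 3.19, 3.52 and 4.22 in WT and 3.95, 2.77 and 2.85 in Tg (-0.46 ± 0.39). Sdc1, the plasma cell surface marker that epithelia also make, differed by -0.01 ± 0.16, and the secretory regulator gene Xbp1 by -0.17 ± 0.11. The secretory and stress genes of this list are active in many cells, and of its members past an unadjusted p of 0.05 there were 2 (Prdm1 and Slamf7), near the 10.3% of all rows under that limit.

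**Figure D4:**
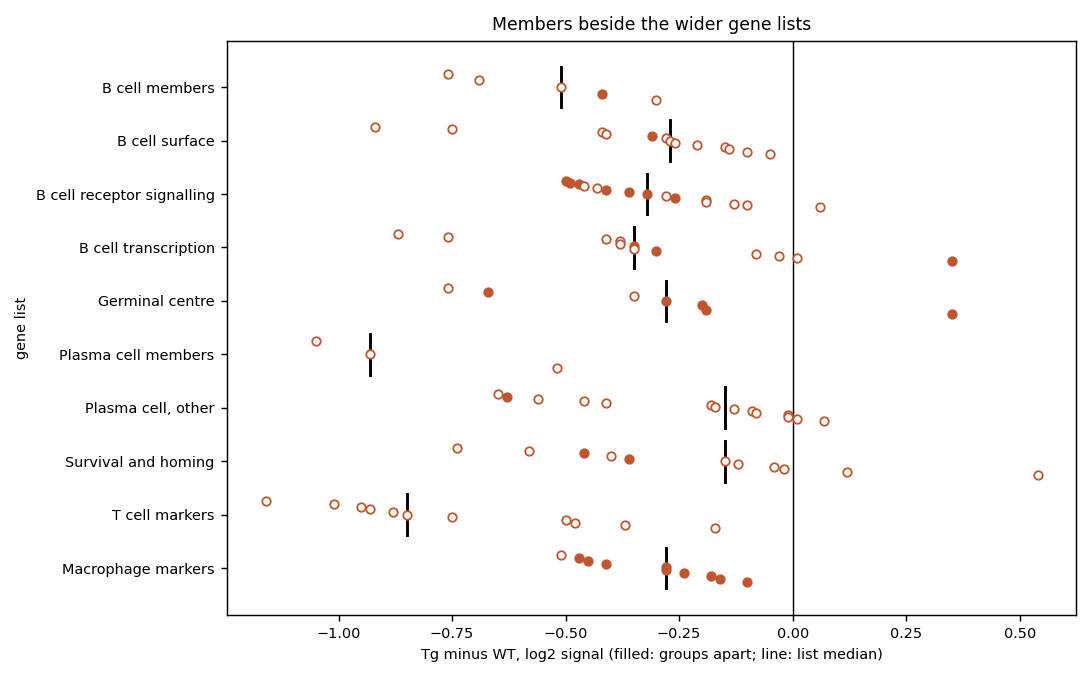
Difference between Tg and WT (x axis, log2 signal) of each measured gene in the B cell, plasma cell, T cell and macrophage lists (y axis). Filled points are genes whose groups do not overlap and lines are list medians, which run from -0.93 for the plasma cell members to -0.15 for the other plasma cell genes and the survival and homing genes.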

How the data were processed

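Total RNA of 6 eWAT samples (3 WT, 3 Tg, 400 ng each) was turned into biotinylated cDNA with the Affymetrix WT Plus kit, per the labels' protocols. The deposited values are log2 signals, 1 per array and row, with array medians between 2.64 and 2.75. RMA and limma are named in the submitters' processing notes. Versions, settings, filters and genome build are not given in the sources used here. RMA normalizes between arrays, so a change in total RNA cannot be seen, and low values are compressed.

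Of 41345 rows, the platform annotation named 1 gene in 23521, several in 1814 and none in 16010. Per gene the row with the highest mean was used. Tg was compared with WT on all rows with limma 3.58.1 in R 4.3.3 (lmFit, eBayes, 2-sided, no covariate, no filter), with Benjamini-Hochberg adjustment over all rows and a threshold of 0.05. SE is that of the fit and SD that between arrays. The procedure was tested on simulated data. The number of arrays limits the precision. The p-values set each difference against the spread between these arrays, which eBayes draws towards that of all rows. Symbols and promoters came from RefSeq tables of GRCm38.p6.

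The members, gene lists, tests and alternatives (arrays left out, replicate block, other normalizations, filters, variance models) were chosen with earlier results of these data known. Named were the members, in each list the genes with the 2 smallest p and those with groups apart, and the genes most like the member means over the arrays, with markers of other cell types given mostly as counts. Other names were chosen after values were seen. Surrogate light chain genes, 3 measured of 13 in the constant and surrogate list, differed by -0.08 to 0.09, and the 1 measured of 6 red cell markers, Slc4a1, by 0.65 ± 0.31.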

Additional observations from a re-analysis of the deposited data

How the results depend on the processing

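Each of the 9 members stayed lower in Tg under every alternative that held it, except the comparison limited to WT 1, Tg 1 and Tg 3. In that comparison limma takes the lone WT array to vary like the Tg arrays. There Ms4a1 read 0.11, Cd79a 0.35, Cd79b 0.07 and Jchain 0.13, and the mean difference of the B cell members was -0.01. The cause was not tested. Over the alternatives the members' adjusted p in limma lay between 0.242 and 0.998. Limma called 0 rows at an adjusted p of 0.05 under every alternative run, while an unadjusted p under 0.05 gave 4263 rows, and 2246 in the 3 arrays. With the replicate number as a block 0 rows were called, and 4034 had an unadjusted p under 0.05. Deviations of same-numbered arrays correlated at -0.038, 0.007 and -0.043, so no broad pairing by number was seen. A shared factor that touches few genes would not show in these values. With the block the SE of Ighg3 was 0.19 (adjusted p of 0.425 in limma), against 0.67 without it. Leaving out each array in turn gave mean differences of -0.87 to -0.29 for B cell members, -1.23 to -0.53 for plasma cell members and 0.08 to 0.46 for the gap between them. Filters on dim rows, 3 renormalizations, other variance models and the mean over a gene's rows kept the sign of each member tested under them. The filter to rows above the median level left out Tnfrsf17. Signals near the background limit Tnfrsf17 and the dim rows.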

Other observations

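Germinal centre genes, which B cells use while they refine antibodies, were lower in 6 of 7 measured. Rgs13 read 1.74, 1.88 and 1.82 in WT and 1.05, 1.07 and 1.31 in Tg, a dim gene with groups apart (-0.67 ± 0.11, adjusted p of 0.313 in limma). Rgs13 is also a mast cell gene, and all 8 mast cell markers were lower in Tg with groups apart, with a log2 summed signal of 10.30 to 11.25 in WT and 9.26 to 9.76 in Tg. Their part in the Rgs13 value was not tested. S1pr2 (-0.28), Bcl6 (-0.19) and Mybl1 (-0.20) had groups apart too. Fas, a death receptor gene of many cells, was higher in Tg (0.35 ± 0.09), also with groups apart. Over all rows 52.8% were lower in Tg, 9.35% were apart and lower, and 16.7% were apart in either direction. After median centring 39.8% were lower and 5.49% were apart and lower.

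Among signals that keep or attract B cells, 9 of 11 measured were lower, by a median of -0.15 (-0.08 without WT 1, -0.26 without Tg 3). Tnfsf13b, the gene of the B cell survival factor BAFF, read 6.12, 6.27 and 6.57 in WT and 5.93, 5.91 and 6.05 in Tg (-0.36 ± 0.14, adjusted p of 0.465 in limma). Il33, an alarmin known to sustain lymphoid clusters in fat, read 6.29, 6.55 and 6.45 in WT and 6.04, 5.98 and 5.88 in Tg (-0.46 ± 0.11). Both had groups apart, where 9.35% of all rows were apart and lower and 52.8% were lower. Cxcl13, the chemokine that draws B cells into follicles, read 7.88, 8.43 and 9.46 in WT and 8.75, 6.85 and 8.45 in Tg. Tg 2 was the lowest array for Cxcl13, as for Ms4a1 and Cd79a, and Tg 1 was the highest Tg array.

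Likeness to the member means over the 6 arrays was ranked among 7165 named genes with a range of at least 0.5. The members, antibody genes, uncharacterised gene models and some families such as olfactory receptors were left out of this ranking. Most like the B cell mean were Ly6d, a marker of lymphoid progenitors and B cells, at a Pearson r of 0.990, Clec4n (0.989), Mlana (0.989), Amy2b (0.986) and Grhl3 (0.978). Ly6d read 4.46, 4.89 and 5.17 in WT and 4.82, 3.40 and 3.77 in Tg. Most like the plasma cell mean were Fgr (0.985), Myl9 (0.979), Kynu (0.976), Tcea2 (0.972) and Ttll4 (0.971), and most like Ighm, by the same measure, Cyp7b1 (0.994) and Slc39a8 (0.992). These values rest on 6 arrays and are given as a description with no test.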
